A study of Homo sapiens with 9 samples.

Results

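The 6 genes at the entry of insulin-like growth factor (IGF) and insulin signalling were followed through quercetin treatment of HCCLM3 cells, an established line of human hepatocellular carcinoma described as highly metastatic. They are the ligand gene IGF2, the receptor genes IGF1R, INSR and IGF2R, and the adaptor genes IRS1 and IRS2. They were taken by gene symbol, and all 6 are among the 17492 genes of the expression table. The 9 RNA-seq libraries form 3 groups of 3: cells labelled wild type with DMSO vehicle (control), and the same line with quercetin at 50 µM or at 100 µM. Quercetin is a plant flavonol, and the series asks how different concentrations of it act on hepatocellular carcinoma cells. All libraries come from this 1 cell line, and for how long cells were treated is not stated in those sources that were used.

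IGF2 is a secreted growth factor of fetal life, made in quantity by fetal liver, transcribed from the paternal allele in most tissues, and often re-expressed in liver cancer. It acts through the receptor tyrosine kinases encoded by IGF1R and INSR, while the product of IGF2R, the cation-independent mannose 6-phosphate receptor, takes IGF2 into lysosomes and sorts lysosomal enzymes without kinase activity. The active kinase receptors phosphorylate the adaptors encoded by IRS1 and IRS2, which bind phosphatidylinositol 3-kinase and so lead to AKT, and through which FOXO transcription factors are kept out of the nucleus.

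The table gives IGF2 (gene 3481) at GRCh38 chromosome 11, 2129117 to 2149793, on the minus strand. IGF1R (gene 3480) lies on chromosome 15, 98648535 to 98964530, and IGF2R (gene 3482) on chromosome 6, 159969082 to 160111504, both on the plus strand. INSR (gene 3643) lies on chromosome 19, 7112257 to 7294414, IRS1 (gene 3667) on chromosome 2, 226731312 to 226799820, and IRS2 (gene 8660) on chromosome 13, 109752695 to 109788565, all 3 on the minus strand. Strands are from the GENCODE 29 annotation. IGF2 overlaps INS-IGF2 on its own strand and IGF2-AS on the other, and IGF1R, IGF2R (AIRN) and IRS2 overlap antisense genes. No source used here says whether the counting used strand, so reads from such pairs may not be told apart. INS-IGF2 is in the table, and how reads were shared between it and IGF2 was not tested.

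RefSeq holds a promoter window for 5 of the 6 genes (GRCh38.p14), from 250 bases before to 50 bases after a start site. The IRS2 window (chr13:109786534-109786833) does not hold the IRS2 start given above (109788565, minus strand), so its matches are not at that start. INSR and IRS1 are shown because they are the members with an entry whose counts passed the test in a comparison. Both windows are printed 5′ to 3′ in the direction of transcription, on the minus strand, at chr19:7294365-7294664 for INSR and chr2:226799771-226800070 for IRS1. Capitals mark the GC box GGGCGG, the core that SP1-type zinc finger factors bind, read on both strands, with overlapping matches run together.
INSR promoter: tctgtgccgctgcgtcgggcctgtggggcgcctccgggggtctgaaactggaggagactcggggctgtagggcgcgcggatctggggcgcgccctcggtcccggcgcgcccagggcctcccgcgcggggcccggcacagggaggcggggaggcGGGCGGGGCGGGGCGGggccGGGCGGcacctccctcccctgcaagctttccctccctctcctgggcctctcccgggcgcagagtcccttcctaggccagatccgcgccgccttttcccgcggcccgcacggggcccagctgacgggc
IRS1 promoter: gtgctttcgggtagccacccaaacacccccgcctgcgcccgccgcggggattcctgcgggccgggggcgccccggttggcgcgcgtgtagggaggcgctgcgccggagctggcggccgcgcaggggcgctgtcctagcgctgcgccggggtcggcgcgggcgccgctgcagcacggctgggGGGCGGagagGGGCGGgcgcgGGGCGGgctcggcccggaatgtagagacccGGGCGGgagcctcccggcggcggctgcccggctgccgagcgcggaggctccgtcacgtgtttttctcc

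Each of these windows held 4 GC boxes, and 45.0% of 35116 RefSeq windows of the same length held at least 1. All 5 windows held the motif, with 2 matches in IGF1R, 6 in IGF2R and 5 in IRS2, and all were rich in G and C (75.7% to 79.7%, against a median of 58.7% over all windows). The core bound by hypoxia-inducible factors, ACGTG on either strand, matched 2 times in IRS1, 1 time in IGF1R and 6 times in IGF2R, and was in 21.4% of all windows. A palindrome CACGTG counts as 1 match on each strand. The core bound by the aryl hydrocarbon receptor, GCGTG on either strand, matched 4 times in IGF1R and 1 time in IRS1, and was in 36.5% of all windows. The FOXO core GTAAACA, present in 3.4% of all windows, was not in these 5. INSR held neither the ACGTG nor the GCGTG core. These matches describe letters in a window and not sites in use.

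The libraries held 20061136 to 21599805 estimated counts, and 12832 genes passed the filter on low counts, all 6 members among them. A library of control cells (replicate 1) and a library at 100 µM (replicate 3) stood apart from their groups. Between replicates the mean chi-square per gene was 27.4 to 86.1 for pairs with either of these libraries and 3.56 to 5.04 for the other pairs. Each member is therefore also given without both. The table held 13 hepatocyte markers, of which 7 were at 1 TPM or more in every library, while ALB, APOA1, APOB, TTR, SERPINA1 and AHSG were below 1 TPM in at least 1 library. The summed level of the 13 was 119 to 139 TPM in control, 171 to 182 TPM at 50 µM and 188 to 231 TPM at 100 µM. APOH, the most abundant, averaged 52.5, 65.2 and 72.0 TPM in this order. The 13 did not all rise: HNF4A was lower at 50 µM than in control, as given with the last list below. Among markers of other cells, PECAM1 (endothelium) averaged 18.0, 9.72 and 10.0 TPM and CD68 (leukocytes) 227, 169 and 330 TPM in the same order, while VWF, CDH5, KDR, TEK, PTPRC, CD3E, CD14 and CSF1R were below 1 TPM in at least 1 library. The summed levels of these markers were 19.9 to 22.4, 10.3 to 12.2 and 11.0 to 14.2 TPM for endothelium (5 genes) and 184 to 256, 164 to 180 and 253 to 376 TPM for leukocytes (5 genes). Those for fibroblasts (8 genes, chiefly LUM) were 57.8 to 87.2, 66.2 to 73.6 and 63.7 to 110 TPM, and for cholangiocytes (5 genes, chiefly SPP1) 1620 to 1820, 1640 to 1700 and 1640 to 1710 TPM. All libraries come from 1 cell line, so these levels are not read as numbers of cells of other types. The part of these markers in the results below was not tested. In bulk RNA fewer cells with a transcript and less of it per cell cannot be told apart. The labels do not say that replicates were separate cultures, so p-values reflect spread among libraries that may differ only technically.

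At 100 µM IGF2 and IRS1 were higher than in control cells, and the remaining 4 members did not pass the test. At 50 µM INSR was lower than in control cells and the other 5 did not pass. Between the doses INSR was higher at 100 µM than at 50 µM, and the other 5 did not pass. A change passed where the adjusted p of edgeR's quasi-likelihood test (Benjamini-Hochberg over all 12832 genes) was under 0.05. For 100 µM against control 2 members of 6 rose and 0 fell, where 21.0% of all tested genes passed in either direction (10.7% higher, 10.3% lower). For 50 µM against control 0 rose and 1 fell, against 11.6% of all genes in either direction (5.28% higher, 6.31% lower). For 100 against 50 µM 1 rose and 0 fell, against 4.15% of all genes (2.25% higher, 1.89% lower). The median log2 fold change over the members was 0.14, -0.08 and 0.24 in these comparisons, and over all tested genes it was 0.000873, 0.00329 and 0.0121. At an unadjusted p under 0.05, and by DESeq2, 2 members rose at 50 µM against control (IGF2 and IRS1) and 2 at 100 against 50 µM (INSR and IGF2). At an unadjusted p under 0.05, 32.2% of all tested genes passed at 50 µM against control (15.2% higher, 17.0% lower), 36.6% at 100 µM against control (18.2% higher, 18.4% lower) and 22.0% between the doses (11.4% higher, 10.6% lower). DESeq2 passed 20.0% of all genes tested at 50 µM against control (9.38% higher, 10.6% lower), 26.6% at 100 µM against control (13.1% higher, 13.4% lower) and 10.8% between the doses (5.32% higher, 5.46% lower). Both comparisons with control share the 3 control libraries, and both comparisons of 50 µM share its 3 libraries.

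**Figure D1:**
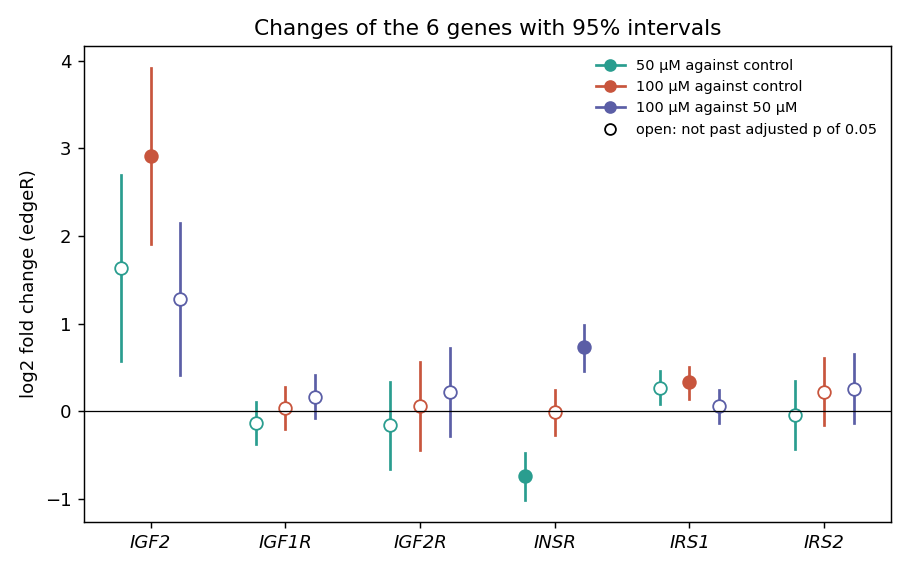
Log2 fold change (vertical axis) of each gene in edgeR for 50 µM against control, 100 µM against control and 100 µM against 50 µM, with 95% intervals as vertical lines. Filled points passed an adjusted p of 0.05 and open points did not; IGF2 stands highest at 2.91 for 100 µM against control, and INSR has -0.74 at 50 µM against control and 0.73 between the doses.

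Transcripts of the ligand gene IGF2 were rare in control cells and more abundant in every library with quercetin. The control replicates 1, 2 and 3 held 17, 3 and 4.7 estimated counts, or 0.776, 0.141 and 0.254 normalised counts (CPM, counts scaled to library size by TMM). At 50 µM the replicates held 1.25, 1.44 and 1.02 CPM, and at 100 µM they held 2.92, 3.44 and 2.67 CPM. All libraries at 100 µM therefore lay above all at 50 µM, and all at 50 µM above all controls. Control replicate 1, which stood apart, had the highest value of its group, over 3 times that of the next control.

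IGF2 averaged 3.01 ± 0.394 CPM at 100 µM and 0.391 ± 0.339 CPM in control cells (SD, n = 3 each). This was a log2 fold change of 2.91 ± 0.449 (SE; edgeR adjusted p = 0.00296), or 7.52-fold. The gene stood at percentile 99.8 of the log2 fold changes over all tested genes. At 50 µM, with 1.24 ± 0.208 CPM against 0.391 ± 0.339 CPM in control cells, it did not pass (log2 fold change 1.63 ± 0.471, edgeR adjusted p = 0.0524). Between the doses it was 1.28 ± 0.391 for 100 against 50 µM and did not pass (edgeR adjusted p = 0.0943). The groups did not overlap in any of the 3 comparisons, and lay higher, as did 17.3% of all tested genes at 100 µM against control, 24.4% at 50 µM against control and 13.3% between the doses. In either direction the shares without overlap were 35.9%, 49.0% and 27.7%.

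The call at 100 µM held in each of 9 fits that left out 1 library, with log2 fold changes of 2.52 to 3.91 and an edgeR adjusted p of at most 0.02. Those for 50 µM and between the doses turned on single libraries. For 50 µM against control IGF2 passed without control replicate 1 (log2 fold change 2.62, edgeR adjusted p = 0.00372) and without 100 µM replicate 3 (1.64, edgeR adjusted p = 0.0161). For 100 against 50 µM it also passed without control replicate 1 (1.28, edgeR adjusted p = 0.0221) and without 100 µM replicate 3 (1.36, edgeR adjusted p = 0.0199). More genes passed in these fits in general. At 50 µM against control 2842 and 4739 did, against 1488 with all libraries, and between the doses 809 and 3561 did, against 532. Without both libraries the log2 fold changes were 3.99 at 100 µM against control, 2.62 at 50 µM against control and 1.37 between the doses (edgeR adjusted p = 1.39e-09, 7.3e-06 and 2.32e-05). In those fits 48.6%, 57.4% and 47.3% of tested genes passed in the same order of comparisons. For IGF2 the authors' deposited table gives log2 fold changes of 2.99 at 100 µM, 1.69 at 50 µM and 1.29 between the doses, with q-values of 1.68e-05, 0.0362 and 0.00273.

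Counting error limits these values, since the 3 control libraries together held 25 counts. Their pooled ratios, with exact 95% intervals that cover counting error only, were 7.47 (4.91 to 11.8) for 190 counts at 100 µM against those 25, and 3.13 (1.97 to 5.12) for 79 counts at 50 µM. Between the doses the pooled ratio was 2.39 (1.83 to 3.14). Per transcript length IGF2 averaged 1.25 ± 0.196 TPM at 100 µM and 0.183 ± 0.171 TPM in control cells (SD, n = 3 each). At both doses the level stayed low: its mean TPM was at percentile 1.25 among tested genes in control, 5.42 at 50 µM and 9.98 at 100 µM.

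**Figure D2:**
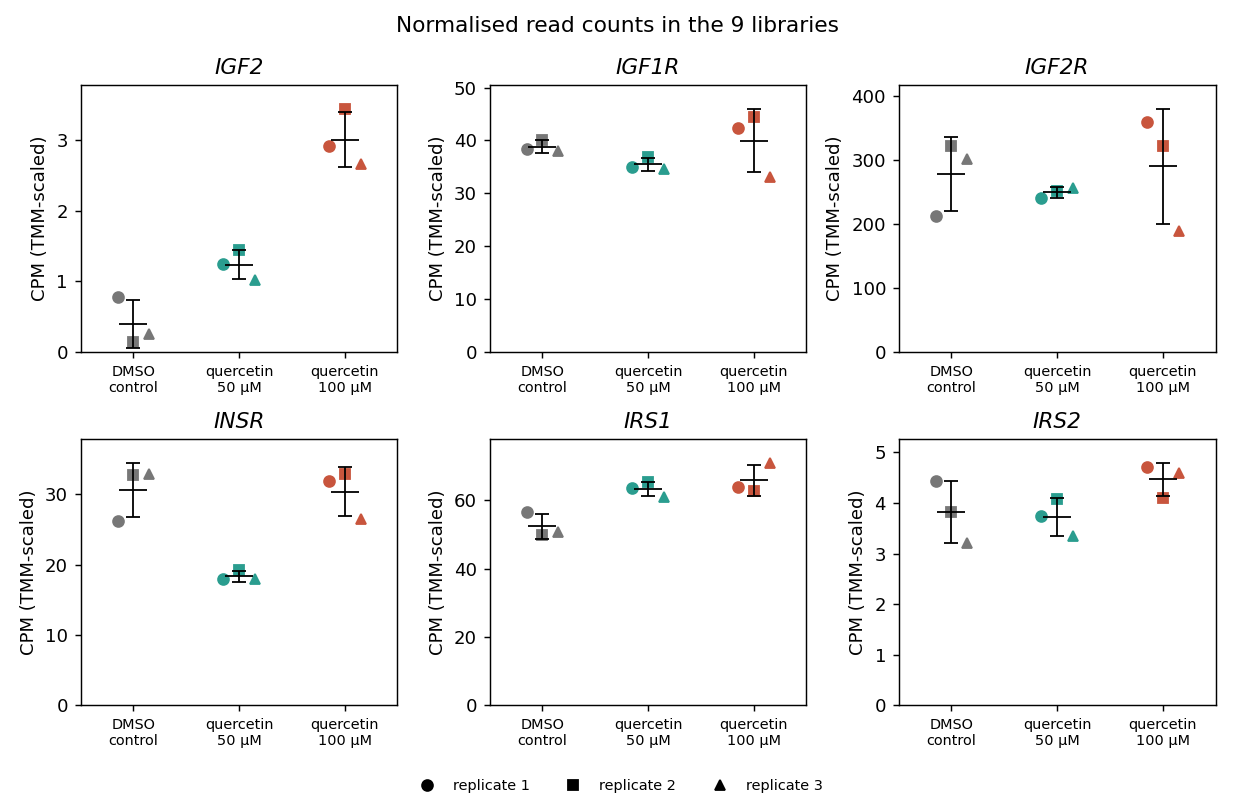
Normalised read counts of each gene (CPM, TMM-scaled, linear axes from 0) in the 9 libraries, grouped as DMSO control, quercetin 50 µM and quercetin 100 µM, with mean and SD as horizontal and vertical lines and a symbol for each replicate. IGF2 steps up over the doses to 2.67 to 3.44 CPM at 100 µM, INSR is lowest in the 3 libraries at 50 µM, and control replicate 1 and 100 µM replicate 3 hold the lowest IGF2R and INSR values of their groups.

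INSR encodes the insulin receptor, which binds insulin and, in one splice form, IGF2. Its level was lower at 50 µM than in the other 2 groups. Control replicates 1, 2 and 3 held 26.2, 32.8 and 32.9 CPM, the libraries at 50 µM 17.9, 19.3 and 17.9 CPM, and those at 100 µM 31.8, 32.9 and 26.4 CPM. The 3 libraries at 50 µM lay close together and below all 6 others, while the groups at 100 µM and control overlapped. The lowest library of each of those groups was the one that stood apart. Of all tested genes 24.6% lay lower without overlap at 50 µM than in control, and 13.3% higher at 100 than at 50 µM.

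INSR averaged 18.4 ± 0.772 CPM at 50 µM and 30.6 ± 3.86 CPM in control cells (SD, n = 3 each), so that it fell 1.67-fold. The log2 fold change was -0.74 ± 0.12 (SE; edgeR adjusted p = 0.0105). Between the doses it averaged 30.4 ± 3.46 CPM at 100 µM and 18.4 ± 0.772 CPM at 50 µM, 1.65-fold higher at 100 µM (log2 fold change 0.73 ± 0.12, edgeR adjusted p = 0.0144). At 100 µM against control the log2 fold change was -0.01, with a 95% interval of -0.27 to 0.25 (edgeR adjusted p = 0.958). The course over the doses thus was not a single direction: the middle dose was the low one.

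The size of the INSR change was steady and its call was not. For 50 µM against control the log2 fold change was -0.83 to -0.68 over 9 fits that left out 1 library. It did not pass without control replicate 2 (edgeR adjusted p = 0.0664) or 3 (0.0638), or without 50 µM replicate 1 (0.0621) or 3 (0.0664). For 100 against 50 µM it was 0.67 to 0.82 and did not pass without 100 µM replicate 1 (edgeR adjusted p = 0.0518) or 2 (0.0539), or without 50 µM replicate 1 (0.0954), 2 (0.0717) or 3 (0.092). Without both libraries that stood apart, the log2 fold changes were -0.84 for 50 µM against control and 0.82 for 100 against 50 µM (edgeR adjusted p = 4.44e-10 and 1.43e-09). In those fits 57.4% and 47.3% of all tested genes passed. For 100 µM against control INSR then had -0.01 and did not pass (edgeR adjusted p = 0.911). The authors' deposited table gives -0.739 (q = 5.44e-07) for 50 µM against control and 0.724 (q = 2.62e-05) for 100 against 50 µM.

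IGF1R encodes the IGF-1 receptor, the kinase through which IGF1 and IGF2 drive growth. Its counts differed little between the groups. Control replicates 1, 2 and 3 held 38.4, 40.1 and 37.9 CPM, the libraries at 50 µM 35.0, 36.8 and 34.6 CPM, and those at 100 µM 42.3, 44.4 and 33.2 CPM. The 50 µM libraries lay just below the controls without overlap, as they did for 24.6% of all tested genes, and 100 µM replicate 3 held the lowest value of all 9. The log2 fold change was -0.13 ± 0.108 at 50 µM against control (edgeR adjusted p = 0.423), 0.04 ± 0.108 at 100 µM against control (0.811) and 0.17 ± 0.108 between the doses (0.397). The 95% intervals were -0.37 to 0.11, -0.20 to 0.28 and -0.07 to 0.41. Without 100 µM replicate 3 the difference between the doses was 0.29 and passed (edgeR adjusted p = 0.0144). In that fit 3561 genes passed between the doses, against 532 with all libraries. Without both libraries that stood apart it was 0.30 (edgeR adjusted p = 0.000793), where 47.3% of tested genes passed. Against control IGF1R then had -0.14 at 50 µM and 0.16 at 100 µM and did not pass (edgeR adjusted p = 0.0924 and 0.0856).

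Per transcript length IGF1R gave another picture, with lower values at 50 µM. Control replicates 1, 2 and 3 held 8.88, 10.8 and 9.83 TPM, the libraries at 50 µM 6.36, 7.65 and 5.97 TPM, and those at 100 µM 8.95, 9.31 and 5.37 TPM. The libraries at 50 µM lay below all controls, and those at 100 µM overlapped both groups. On log2(TPM + 0.1) the difference was -0.56 at 50 µM against control and did not pass (limma adjusted p = 0.107). It was -0.63 without both libraries that stood apart, a setting added once values were known (limma adjusted p = 0.000219, where 54.4% of tested genes passed). At 100 µM against control it was -0.35 (limma adjusted p = 0.24), and -0.17 without both libraries (limma adjusted p = 0.277).

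The gap between counts and TPM lies in the length that the deposited values assign to IGF1R, obtained by dividing the estimated count by the FPKM and the library total. This length was 9411, 7963 and 8080 bases in control replicates 1, 2 and 3. It was 11268, 10123 and 11694 bases at 50 µM and 10087, 9894 and 11847 bases at 100 µM. All 6 libraries with quercetin thus gave IGF1R a longer length than all 3 controls. With each library centred on its median gene, the length was 1.3 times that of control at 50 µM and 1.24 times at 100 µM. Among 10418 genes with at least 1 FPKM in every library, 3 had a larger increase at 50 µM and 10 at 100 µM. Of these genes 4.02% had longer lengths without overlap at 50 µM than in control, and 3.42% at 100 µM. For INSR, IGF2R and IRS1 the ratio of lengths was 0.995 to 0.997 at both doses against control, with groups that overlapped.

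The length in such tables is an average over transcripts, weighted by their estimated abundance. GENCODE 29 lists 19 transcripts of IGF1R, of 303 to 12235 bases, of which 6 are coding (572 to 12235 bases). The deposited values count 28 for IGF1R, so the GENCODE set need not be the one behind the lengths. For INSR the length averaged 9403 bases in control, above its longest GENCODE 29 transcript of 8954 bases. Transcripts were not analysed here, and the cause of the longer length was not tested. The values in control replicate 1 (9411 bases) and 100 µM replicate 2 (9894 bases) were the nearest between the groups.

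**Figure D3:**
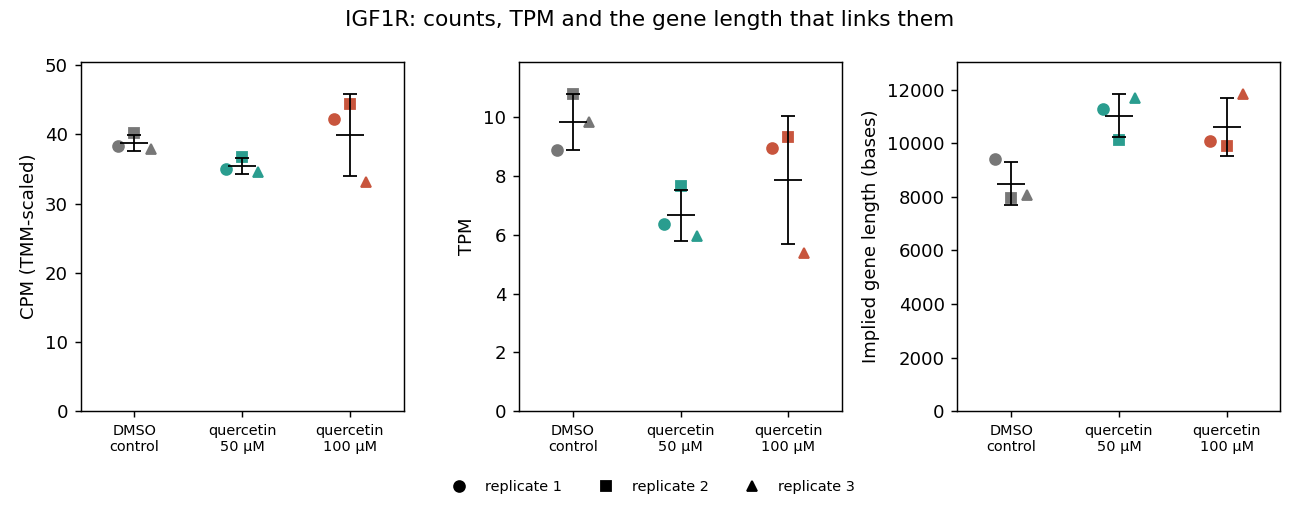
IGF1R in the 9 libraries as CPM (TMM-scaled), as TPM and as the gene length in bases that links counts to FPKM, each on a linear axis from 0, with mean and SD per group. CPM is near 39 in control cells and overlaps the 100 µM group, TPM is lowest at 50 µM, and all 6 quercetin libraries have lengths above the highest control of 9411 bases.

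IGF2R, which encodes the scavenging and sorting receptor, was the most abundant member, and its spread within groups was wide. Control replicates 1, 2 and 3 held 211, 321 and 301 CPM, the libraries at 50 µM 240, 251 and 256 CPM, and those at 100 µM 359, 321 and 189 CPM. The lowest control and the lowest library at 100 µM were the 2 that stood apart, and all 3 groups overlapped. The log2 fold change was 0.06 ± 0.223 at 100 µM against control (edgeR adjusted p = 0.868), -0.16 ± 0.223 at 50 µM against control (0.648) and 0.22 ± 0.223 between the doses (0.616). The 95% interval at 100 µM against control, -0.44 to 0.56, leaves room for changes as large as those that passed in IRS1.

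Without both libraries that stood apart, IGF2R was lower at 50 µM than in control by 0.32 on the log2 scale (log2 fold change -0.32, edgeR adjusted p = 3.45e-05) and higher at 100 µM than at 50 µM by 0.46 (edgeR adjusted p = 2.75e-07). At 100 µM against control it was 0.14 and did not pass (edgeR adjusted p = 0.0752). In those 7 libraries IGF2R, IGF1R and INSR were each higher at 100 µM than at 50 µM. In that fit 47.3% of all tested genes passed between the doses in either direction, and 57.4% at 50 µM against control. Without 100 µM replicate 3 alone the IGF2R difference between the doses was 0.45 (edgeR adjusted p = 0.0488), in a fit where 3561 genes passed.

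IRS1 encodes the adaptor that carries the signal of both kinase receptors to phosphatidylinositol 3-kinase. It was moderately higher with quercetin. Control replicates 1, 2 and 3 held 56.6, 49.9 and 50.8 CPM, the libraries at 50 µM 63.5, 65.4 and 61.1 CPM, and those at 100 µM 64.0, 62.6 and 71.0 CPM. All 6 libraries with quercetin lay above all 3 controls, and the doses overlapped. Of all tested genes 24.4% lay higher without overlap at 50 µM than in control, and 17.3% at 100 µM. IRS1 averaged 65.9 ± 4.49 CPM at 100 µM and 52.5 ± 3.64 CPM in control cells (SD, n = 3 each), 1.26-fold higher at 100 µM (log2 fold change 0.33 ± 0.0836, edgeR adjusted p = 0.0231). At 50 µM it averaged 63.3 ± 2.11 CPM, and against control it did not pass (log2 fold change 0.27 ± 0.0836, edgeR adjusted p = 0.0612). Between the doses it was 0.06, with a 95% interval of -0.13 to 0.24 (edgeR adjusted p = 0.747).

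Single libraries also decided the IRS1 calls. At 100 µM against control the change did not pass without control replicate 2 (log2 fold change 0.30, edgeR adjusted p = 0.0933) or 3 (0.31, edgeR adjusted p = 0.0888). At 50 µM against control it passed without control replicate 1 (0.33, edgeR adjusted p = 0.0266) and without 100 µM replicate 3 (0.28, edgeR adjusted p = 0.00946). In these fits 2842 and 4739 genes passed, against 1488 with all libraries. Without both libraries that stood apart IRS1 had 0.01 between the doses and did not pass (edgeR adjusted p = 0.927). The log2 fold change was then 0.34 at 100 µM and 0.33 at 50 µM against control (edgeR adjusted p = 0.000169 and 5.94e-05), where 48.6% and 57.4% of tested genes passed. The authors' deposited table gives 0.327 at 100 µM (q = 0.0496) and 0.268 at 50 µM (q = 0.0194).

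IRS2 encodes the second adaptor, which in the mouse liver is known to carry much of the fasting insulin signal. It stayed low and did not pass in any comparison. Control replicates 1, 2 and 3 held 4.43, 3.82 and 3.20 CPM, the libraries at 50 µM 3.74, 4.08 and 3.35 CPM, and those at 100 µM 4.71, 4.09 and 4.60 CPM. The 3 libraries at 100 µM lay just above those at 50 µM, and control overlapped both. Of all tested genes 13.3% lay higher at 100 than at 50 µM without overlap, and 27.7% lay without overlap in either direction. The log2 fold change was 0.22 ± 0.173 at 100 µM against control (95% interval -0.16 to 0.61, edgeR adjusted p = 0.375) and -0.04 ± 0.174 at 50 µM (-0.43 to 0.35, edgeR adjusted p = 0.899). Between the doses it was 0.26 ± 0.173 (-0.13 to 0.65, edgeR adjusted p = 0.42). Without both libraries that stood apart IRS2 had 0.33, 0.08 and 0.25 in the same order of comparisons. It did not pass there either (edgeR adjusted p = 0.133, 0.697 and 0.214). With 63.2 to 100.1 estimated counts per library, IRS2 and IGF2 were the members with the widest relative counting error.

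Levels of different genes can be set side by side per transcript length, with 2 limits. The libraries were treated with a nuclease that trims abundant transcripts and can compress differences between genes. The length assigned to IGF1R differed between the groups, which enters its TPM and the ratios below. In 7 of 9 libraries the order of TPM was IGF2R, IRS1, IGF1R, INSR, IRS2 and IGF2. In 100 µM replicate 2 IGF2 (1.45 TPM) stood above IRS2 (1.04 TPM), and in 100 µM replicate 3 INSR (5.40 TPM) stood above IGF1R (5.37 TPM). IGF2R averaged 42.3 ± 8.4 TPM in control cells, 36.6 ± 1.34 TPM at 50 µM and 42.7 ± 15.0 TPM at 100 µM (SD, n = 3 each). It made up 49.0% to 62.6% of the summed TPM of the 6 genes in a library. IRS1 averaged 11.6 ± 0.99, 13.4 ± 0.731 and 13.8 ± 0.402 TPM in control cells, at 50 µM and at 100 µM. INSR averaged 6.96 ± 0.771, 4.02 ± 0.251 and 6.63 ± 1.06 TPM in the same order, and IRS2 1.01 ± 0.18, 0.947 ± 0.11 and 1.12 ± 0.106 TPM. The ranges of the neighbours IRS1 and IGF1R did not overlap within any group, nor did those of IGF2R and IRS1. Those of IGF1R and INSR overlapped at 100 µM, as did those of IRS2 and IGF2 there.

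**Figure D4:**
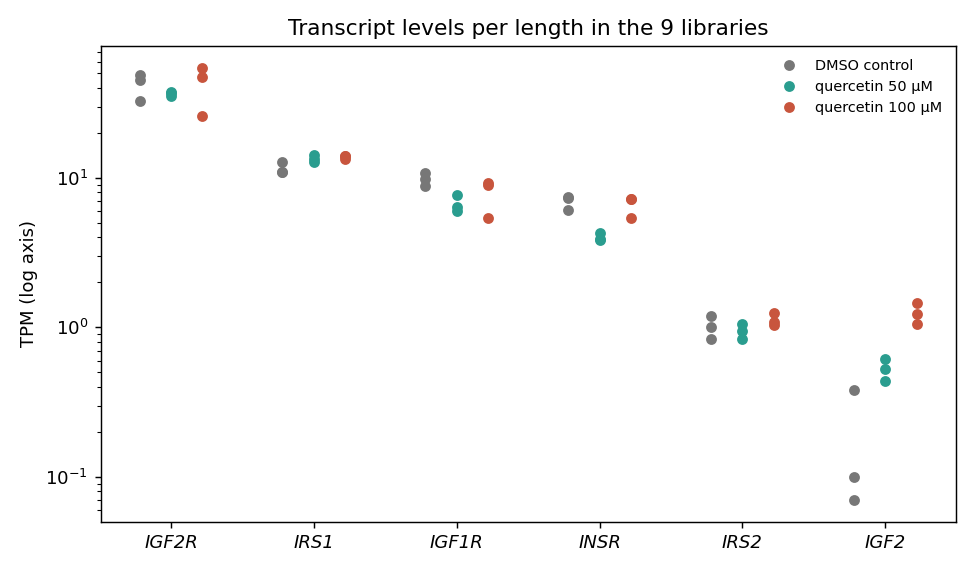
TPM of the 6 genes (log axis) in the 9 libraries, ordered from the most to the least abundant gene, with a point per library coloured by DMSO control, quercetin 50 µM or quercetin 100 µM. IGF2R stands highest in every library, IRS2 and IGF2 lie near or below 1 TPM, and the 3 IGF2 groups form separate steps.

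The balance between paired members was compared within each library as a ratio of TPM, with exact two-sided permutation tests between groups, which cannot go below 0.10 with 3 libraries a group. IGF1R exceeded INSR 1.42 times in control (1.46, 1.45 and 1.34 in replicates 1, 2 and 3), 1.65 times at 50 µM (1.62, 1.77 and 1.55) and 1.16 times at 100 µM (1.24, 1.28 and 0.994). The 3 groups did not overlap, and each comparison gave the smallest p of 0.1 (exact permutation test; 0.129 adjusted over 9 such tests). In counts the log2 difference of this ratio was 0.60 for 50 µM against control, 0.04 for 100 µM against control and -0.56 for 100 against 50 µM, whereas in TPM it was 0.22, -0.28 and -0.50. At 100 µM against control the ratio thus was lower in TPM but not in counts.

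IRS1 exceeded IRS2 11.5 times in control, 14.2 times at 50 µM and 12.4 times at 100 µM. At 50 µM the ratio lay above control without overlap (exact permutation p = 0.1, adjusted 0.129), and at 100 µM it overlapped control (p = 0.4 by the same exact test). IGF2R exceeded IGF1R 4.25 times in control, 5.52 times at 50 µM and 5.32 times at 100 µM. Both doses lay above control in TPM without overlap (exact permutation p = 0.1, adjusted 0.129, for each), while in counts the log2 difference was 0.0 for both. The IGF2R to IGF1R ratio was thus higher with quercetin in TPM but not in counts.

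Genes with the closest course over the 9 libraries were found by Pearson's r of log2(CPM + 0.5) among tested genes of at least 5 CPM on average. The 9 points share libraries and depth, and each r is the highest found and so high by selection. For INSR these were FOXO3 (r = 0.986), LNPEP (0.975) and LAMB3 (0.973). INSR at 18.4 CPM, FOXO3 at 34.1 CPM and LAMB3 at 37.3 CPM were each lower at 50 µM than the control means of 30.6, 45.8 and 80.5 CPM. For IGF2 they were ZSWIM9 (0.983), YIPF3 (0.982) and PPARD (0.981), and PPARD averaged 19.6 CPM in control, 24.0 CPM at 50 µM and 30.7 CPM at 100 µM. For IRS1 they were ZNF627 (0.986), TRIM2 (0.986) and TSPAN9 (0.984), of which TRIM2 averaged 73.5 CPM in control, 137 CPM at 50 µM and 149 CPM at 100 µM. For IGF1R they were ATG2A (0.98), PLXNA1 (0.975) and SIK1B (0.975), for IGF2R EIF4EBP2 (0.981), AMOTL2 (0.971) and HTT (0.969), and for IRS2 CALD1 (0.973), MBNL2 (0.952) and PGPEP1 (0.943).

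Genes that act beside the 6 members were grouped by role into 7 lists, and each count of calls stands against the shares of all tested genes. These were 10.7% higher and 10.3% lower at 100 µM against control, 5.28% and 6.31% at 50 µM against control, and 2.25% and 1.89% between the doses. Among other ligands and IGF binding proteins, 8 genes were tested, and INS and IGF1 were below the filter. At 100 µM 3 of 8 (37.5%) rose against control and 0 fell, with a list median of 0.56 on the log2 scale. DESeq2 called 1 of the 8 higher there and gave no adjusted p for IGFBP3 and IGFBP5. At 50 µM 1 rose and 0 fell (median -0.24), and between the doses 2 rose and 0 fell (median 0.89). IGFBP2, which binds both IGFs, averaged 20.5 ± 6.17 CPM in control, 59.1 ± 3.73 CPM at 50 µM and 52.1 ± 5.27 CPM at 100 µM (SD, n = 3 each). It rose at both doses (log2 fold change 1.53 at 50 µM and 1.34 at 100 µM, edgeR adjusted p = 0.0039 and 0.00177) and kept both calls in each fit that left out 1 library.

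IGFBP3, named in the title of the series, held 10.2, 8.39 and 8.14 CPM in control replicates 1, 2 and 3, 18.7, 13.8 and 15.0 CPM at 50 µM, and 55.8, 55.4 and 420 CPM at 100 µM. Its level at 100 µM rested largely on replicate 3, which stood apart. The log2 fold change at 100 µM against control was 4.31 with all libraries and 2.76 without both that stood apart (edgeR adjusted p = 0.00567 and 3.2e-17). IGFBP5 held 0.776, 0 and 0 CPM in control and 2.92, 2.32 and 119 CPM at 100 µM, where it passed (edgeR adjusted p = 0.0238). It did not pass without control replicate 1, 2 or 3 (edgeR adjusted p of at most 0.0954). IGFBP1, a liver binding protein that insulin represses, averaged 175 ± 87.1 CPM at 100 µM and 41.7 ± 4.45 CPM at 50 µM and rose between the doses (edgeR adjusted p = 0.0257). Its control mean of 106 ± 37.4 CPM lay between these. Against control it passed at neither dose (log2 fold change -1.35 at 50 µM and 0.72 at 100 µM, edgeR adjusted p = 0.0546 and 0.206). The call between the doses was lost without any 1 of 6 libraries: control replicate 3, each at 50 µM, and 100 µM replicates 1 and 2. Its log2 fold change ran 1.79 to 2.43 over the 9 such fits.

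Among partners and inhibitors close to the receptors 21 genes were tested. At 100 µM 6 (28.6%) rose and 1 fell against control (median 0.05), at 50 µM 3 rose and 2 fell (median -0.14), and between the doses 4 rose and 0 fell (median 0.12). GRB10, an adaptor that binds and inhibits the insulin and IGF-1 receptors, averaged 353 ± 18.0 CPM at 100 µM and 223 ± 15.0 CPM in control (log2 fold change 0.66, edgeR adjusted p = 0.000972). SOCS2, a suppressor of growth hormone signalling that binds the IGF-1 receptor, averaged 5.12 ± 1.26 CPM in control, 15.0 ± 1.13 CPM at 50 µM and 13.1 ± 1.36 CPM at 100 µM. It rose at both doses (1.55 at 50 µM and 1.35 at 100 µM, edgeR adjusted p = 0.00286 and 0.00128). SOCS3, which targets IRS proteins for degradation, averaged 37.4 ± 0.907 CPM at 100 µM and 15.9 ± 4.51 CPM in control (1.23, edgeR adjusted p = 0.00171). These 3 inhibitors kept their calls against control in every fit that left out 1 library. At 50 µM GAB1, an IRS-related docking protein, fell to 19.1 ± 0.431 CPM, against 25.5 ± 0.474 CPM in control, and SHC1, the adaptor that leads to RAS, to 455 ± 3.72 CPM, against 547 ± 15.7 CPM in control (edgeR adjusted p = 0.0189 and 0.0338).

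In the list of phosphatidylinositol 3-kinase, AKT and mTOR genes 29 were tested. At 100 µM 2 (6.9%) rose and 1 (3.45%) fell, with a median of -0.10. At 50 µM 0 rose and 3 (10.3%) fell, with a median of -0.15, where 11.6% of all genes passed in either direction. Between the doses 0 passed in edgeR, against 4.15% of all genes (median 0.10; 2 rose at an unadjusted p under 0.05, and 0 by DESeq2). Without both libraries that stood apart 17 of the 29 passed at 50 µM, where 57.4% of all genes did. PIK3R1, the regulatory subunit that docks on phosphorylated IRS proteins, averaged 22.8 ± 2.17 CPM in control, 16.7 ± 1.06 CPM at 50 µM and 15.2 ± 2.05 CPM at 100 µM and fell at both doses (log2 fold change -0.45 at 50 µM and -0.59 at 100 µM, edgeR adjusted p = 0.0422 and 0.0104). AKT1 averaged 147 ± 15.1 CPM at 100 µM and 114 ± 3.19 CPM in control (0.36, edgeR adjusted p = 0.0179). RICTOR, of mTOR complex 2, averaged 37.5 ± 2.91 CPM at 50 µM and 55.3 ± 2.75 CPM in control (-0.56, edgeR adjusted p = 0.0247).

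Of 18 genes of the RAS and MAP kinase branch, 2 rose and 2 fell (11.1% each) at 100 µM (median -0.13), 1 rose and 3 (16.7%) fell at 50 µM (median -0.23), and 0 passed between the doses in edgeR (median 0.12; 2 rose at an unadjusted p under 0.05, and 1 by DESeq2). SOS1, the exchange factor that loads RAS, fell at both doses. It averaged 103 ± 34.1 CPM in control, 38.1 ± 0.954 CPM at 50 µM and 47.2 ± 8.32 CPM at 100 µM (log2 fold change -1.44 at 50 µM and -1.13 at 100 µM, edgeR adjusted p = 0.0102 and 0.00937). The control that stood apart held 63.8 CPM and the other 2 controls 123 CPM each. MAPK3, which encodes the kinase ERK1, averaged 19.3 ± 1.46 CPM in control, 26.6 ± 3.08 CPM at 50 µM and 28.3 ± 4.03 CPM at 100 µM, and rose at both doses (edgeR adjusted p = 0.0478 and 0.0168).

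Among 16 FOXO factors and known FOXO targets 7 (43.8%) rose and 1 fell at 100 µM (median 0.36), against 10.7% of all genes higher and 10.3% lower. At 50 µM 1 rose and 2 (12.5%) fell (median -0.04), against 5.28% and 6.31%, and between the doses 4 (25.0%) rose and 0 fell (median 0.25), against 2.25% and 1.89%. CITED2, a transcriptional coregulator, averaged 39.2 ± 2.2 CPM in control, 51.2 ± 2.46 CPM at 50 µM and 118 ± 10.3 CPM at 100 µM, and rose at both doses (log2 fold change 0.39 at 50 µM and 1.60 at 100 µM, edgeR adjusted p = 0.0251 and 2.43e-05). FBXO32, a ubiquitin ligase component, averaged 55.7 ± 3.06 CPM at 100 µM and 34.0 ± 4.36 CPM in control (0.71, edgeR adjusted p = 0.00237), and CCNG2, an unconventional cyclin, 50.5 ± 17.1 CPM and 16.8 ± 4.82 CPM in the same groups (1.58, edgeR adjusted p = 0.00307). At 50 µM FOXO3 fell to 34.1 ± 1.51 CPM, against 45.8 ± 4.2 CPM in control, and PDK4, which restrains glucose oxidation, to 11.4 ± 0.505 CPM, against 29.7 ± 11.3 CPM in control (edgeR adjusted p = 0.0189 and 0.0146). PDK4 was also the 1 gene that fell at 100 µM, to 15.9 ± 1.45 CPM, with libraries that overlapped control (log2 fold change -0.90, edgeR adjusted p = 0.0321). The 7 that rose at 100 µM include the factor FOXO4 itself.

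Around IGF2R, 26 genes of mannose 6-phosphate sorting were tested, and 6 (23.1%) rose and 1 fell at 100 µM (median 0.04). At 50 µM 1 rose and 2 fell (median -0.07), and between the doses 1 rose and 0 fell (median 0.12). The 1 that rose between the doses was PLAUR, the urokinase receptor gene, which is not itself a sorting gene (log2 fold change 1.05, edgeR adjusted p = 0.012). PLAUR was also 1 of the 2 that fell at 50 µM (-0.72, edgeR adjusted p = 0.025). GNPTG, a subunit of the enzyme that starts the mannose 6-phosphate tag, averaged 22.2 ± 1.69 CPM in control, 31.4 ± 2.84 CPM at 50 µM and 37.3 ± 5.85 CPM at 100 µM, and rose at both doses (log2 fold change 0.50 at 50 µM and 0.75 at 100 µM, edgeR adjusted p = 0.034 and 0.00408). CTSL, a lysosomal protease, averaged 1700 ± 124 CPM in control, 1140 ± 50.7 CPM at 50 µM and 1030 ± 86.0 CPM at 100 µM, and fell at both doses (-0.57 at 50 µM and -0.73 at 100 µM, edgeR adjusted p = 0.0102 and 0.00125). GAA, the lysosomal acid glucosidase, averaged 56.4 ± 22.6 CPM at 100 µM and 21.7 ± 6.87 CPM in control (1.38, edgeR adjusted p = 0.00942).

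The last list held 13 tested genes linked to the control of IGF2 or the receptor genes. Among them CDKN1C was listed for its place near IGF2 and not as a known regulator. At 100 µM 1 rose and 4 (30.8%) fell (median -0.12), at 50 µM 0 rose and 3 (23.1%) fell (median -0.22), and between the doses 0 passed in edgeR (median 0.03; 2 rose at an unadjusted p under 0.05, and 1 by DESeq2). HMGA2, a chromatin protein known to raise the IGF2 mRNA-binding protein gene IGF2BP2, averaged 204 ± 13.7 CPM in control, 113 ± 6.56 CPM at 50 µM and 115 ± 19.5 CPM at 100 µM, and fell at both doses (log2 fold change -0.85 at 50 µM and -0.82 at 100 µM, edgeR adjusted p = 0.00615 and 0.00237). HMGA1, a chromatin protein known to act on the INSR promoter, averaged 750 ± 34.7, 534 ± 32.7 and 525 ± 12.3 CPM in the same order and also fell at both doses (-0.49 and -0.51, edgeR adjusted p = 0.00974 and 0.00266). CDKN1C, imprinted in the same chromosome 11 region as IGF2, averaged 6.68 ± 3.68 CPM at 100 µM and 2.3 ± 0.503 CPM in control (1.54, edgeR adjusted p = 0.0154) and was 0.85 on the log2 scale without both libraries that stood apart (edgeR adjusted p = 0.000511). HNF4A, also among the hepatocyte markers, averaged 39.9 ± 6.61 CPM in control, 23.7 ± 2.19 CPM at 50 µM and 33.2 ± 7.88 CPM at 100 µM. It fell at 50 µM and did not pass at 100 µM (log2 fold change -0.75 and -0.26, edgeR adjusted p = 0.032 and 0.321). H19, PLAGL1, ZFP57, KCNQ1 and WT1 were not tested.

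Many calls of these neighbours were lost when 1 library was left out. Of 22 calls named at 50 µM by the rule, 2 (IGFBP2 and SOCS2) held in every fit that left out 1 library. The others were lost without at least 1 library, in most cases control replicate 2 or 3 or any library at 50 µM. Of 26 calls at 100 µM 14 held in every such fit, and of 9 between the doses 2 held (CITED2 and FBXO32). Without both libraries that stood apart 48.6% of all tested genes passed at 100 µM against control (24.2% higher, 24.4% lower), 57.4% at 50 µM against control (28.5% higher, 28.9% lower) and 47.3% between the doses (24.6% higher, 22.7% lower). In those 7 libraries the counts for the IGF ligand, receptor-proximal, phosphatidylinositol 3-kinase, RAS, FOXO, sorting and regulator lists, of 8, 21, 29, 18, 16, 26 and 13 tested genes, were 6, 9, 5, 4, 8, 9 and 2 higher and 1, 3, 7, 6, 2, 6 and 8 lower at 100 µM against control. They were 3, 6, 4, 1, 6, 5 and 3 higher and 4, 9, 13, 11, 5, 12 and 7 lower at 50 µM against control, and 5, 10, 12, 11, 10, 12 and 3 higher and 1, 4, 1, 3, 1, 3 and 1 lower at 100 against 50 µM.

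**Figure D5:**
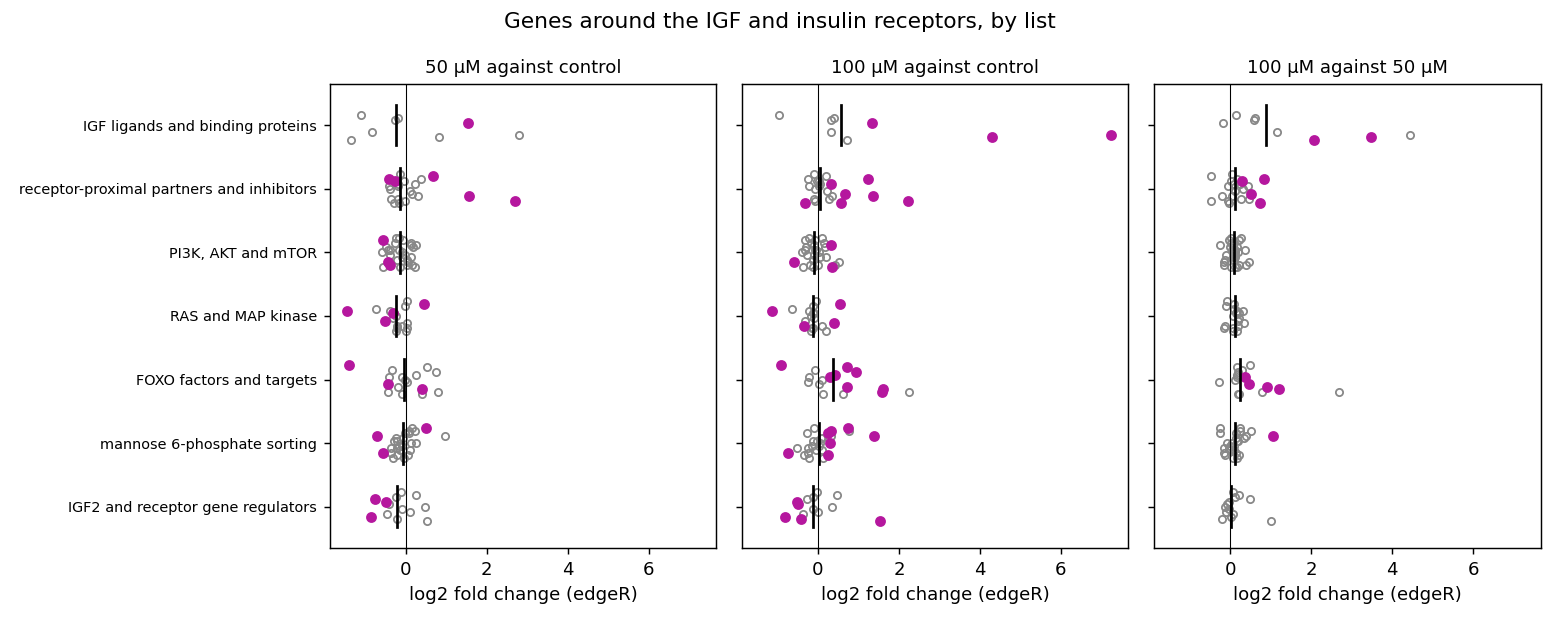
Log2 fold change in edgeR (horizontal axis) of every tested gene of the 7 lists, in panels for 50 µM against control, 100 µM against control and 100 µM against 50 µM; filled points passed an adjusted p of 0.05, open points did not, and the black bar is the list median. In the FOXO list 7 of 16 genes rose at 100 µM against control, where 10.7% of all tested genes did, while the medians of the AKT and RAS lists lie between -0.23 and 0.12 in all panels.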

How the data were processed

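RNA was measured in 9 HCCLM3 libraries in 3 groups of 3, taken from the labels. The labels' protocols describe a Trizol extraction, selection on oligo(dT) beads and PCR amplification. Libraries were then treated with duplex-specific nuclease, which trims abundant transcripts and can compress differences between genes. The authors deposited 1 table with estimated counts (expected counts of reads per gene, not normalised), FPKM and TPM per library. The authors also deposited their own log2 fold changes, p-values and q-values, which came from DESeq2 per the file headers. The submitters' processing notes name HISAT2 2.0.4, Bowtie2 2.2.5, RSEM 1.2.12 and GRCh38.p13, without roles. Whole numbers, within 1e-06, made up 26.84% of those counts. The 9 normalised count columns and 12 group mean columns were not used. Strands in the table matched GENCODE 29 for 69.6% of 16890 genes, so strands are from GENCODE.

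Counts were rounded, filtered with filterByExpr (minimum count 10, minimum total 15, share 0.7) and scaled by TMM. All 9 libraries entered 1 fit of edgeR's quasi-likelihood test (edgeR 4.0.16, robust, two-sided), adjusted over all 12832 tested genes with a threshold of 0.05. Standard errors are the size of the log2 fold change over the root of F. The median standard error was 0.134 and the biological coefficient of variation 14.4%. Alternatives used DESeq2 1.42.0 and limma 3.58.1 on log2 values with a pseudocount of 0.1 or 1, which understates changes of low genes. TPM ratios were compared by exact permutation. The steps were tested on simulated data.

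Members and lists were chosen with earlier results of these data known. Named genes are the 6 members, IGFBP3, the up to 3 smallest adjusted p per list, comparison and direction, the 3 genes closest to each member, and the top gene of each marker list. Some of these are covered by counts alone. A further leukocyte marker is not reported here and is in no sum. Whether replicate numbers pair the libraries is not known. In deviations from group means, same-numbered libraries correlated at -0.144 to -0.0517 for 50 µM against control. They correlated at -0.521 to 0.352 for 100 µM against control and -0.064 to 0.114 between the doses. Differently numbered libraries correlated at -0.0634 to 0.115, -0.46 to 0.566 and -0.11 to 0.0592 in the same order. With 3 libraries a group and 2 that stood apart, these values cannot decide the pairing.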

Additional observations from a re-analysis of the deposited data

How the results depend on the processing

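For the 6 members no alternative turned a called direction. The count of genes past the threshold moved most. For 50 µM against control it was 1488, and 2531 with DESeq2, 4269 with the 2 groups alone, 7398 without both libraries that stood apart and 6980 in limma on TPM without them (added after seeing the data). For 100 µM against control it was 2692, and 1024, 6272 and 5798 in the last 3 of these. For 100 against 50 µM it was 532, and 1367, 251, 6105 and 5504 in the same 4.

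IGF2 at 50 µM against control also passed with DESeq2 (1.65, adjusted p = 0.0086), with the 2 groups alone (1.63), without both libraries (2.62) and in limma on FPKM (1.03) and on TPM without both (1.76). IGF2 between the doses passed in DESeq2 (1.28), the 2 groups alone (1.29), without both (1.37), and in limma on log2(TPM + 1) (0.56) and on TPM without both (1.21). IRS1 at 50 µM passed in DESeq2 and the 2 groups alone (0.27 each), without both (0.33) and on TPM without both (0.28). IRS1 at 100 µM did not pass in the 2 groups alone (0.34, edgeR adjusted p = 0.0803) or in limma on FPKM (0.30), log2(TPM + 0.1) (0.26) and log2(TPM + 1) (0.24). IGF1R on TPM without both gave -0.63 at 50 µM against control and 0.46 between the doses, and without both on counts 0.30 between the doses. For the same comparisons IGF2R gave -0.32 and 0.46 without both on counts, and -0.36 and 0.48 without both on TPM. With all libraries limma on log2(TPM + 0.1) gave -0.19 and 0.15 for IGF2R, and neither passed. The cause was not tested.

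With the replicate number as a block, though whether numbers pair these libraries is not known, 427, 1672 and 109 genes passed for 50 µM against control, 100 µM against control and 100 against 50 µM. IRS1 at 100 µM (0.33, edgeR adjusted p = 0.0604) and INSR between the doses (0.72, edgeR adjusted p = 0.0503) then did not pass, and no other member call changed.

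Leaving out 1 library at a time gave 90 to 4739, 1055 to 3856 and 43 to 3561 genes for those comparisons. The log2 ranges at 50 µM against control were 1.24 to 2.62 (IGF2), -0.16 to -0.10 (IGF1R), -0.31 to -0.03 (IGF2R), -0.83 to -0.68 (INSR), 0.24 to 0.33 (IRS1) and -0.14 to 0.09 (IRS2). At 100 µM against control they were 2.52 to 3.91, -0.04 to 0.17, -0.12 to 0.30, -0.11 to 0.09, 0.28 to 0.39 and 0.12 to 0.35 in the same order. Between the doses they were 1.16 to 1.4, 0.09 to 0.29, 0.03 to 0.45, 0.67 to 0.82, 0.00 to 0.09 and 0.19 to 0.33. The 63 alternatives for TPM ratios stayed within the spread, while 231 of 504 list counts moved by over 1.5 times. Depth limits IGF2 most, with 3 to 17 counts in control libraries.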
